A study of Mus musculus with 7 samples.

Results

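Broad ATAC regions in muscle stem cells (MuSCs) are stretches of open chromatin at least 2000 bp wide in every library of the experiment. A peak, called with MACS from each library alone, was taken as broad when it spanned 2000 bp or more on chromosomes 1 to 19, so the regions were chosen by the measured peak width in these same libraries. Broad peaks of the 4 ATAC-seq libraries were merged into 6834 regions, and 2669 of these held a broad peak in each library. A further 1051 had one in 3 libraries, 1185 in 2 and 1929 in a single library. For comparison, 60353 merged regions held a peak of any width in all 4 libraries, and 57685 of these overlapped no broad region.

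The ATAC libraries came from MuSCs sorted from hind limb muscle at 0 hr, 2 labelled Control and 2 labelled TRF2KO. TRF2KO mice carried TRF2 LoxP alleles and Pax7 CreER, an inducible recombinase driven by the Pax7 gene and therefore active in MuSCs. Mice were kept on a C57BL/6 background, and tamoxifen, which switches the recombinase on, was first given at 8 to 10 weeks of age. How many animals gave a library is not stated. Control mice are described as control or wild-type, without a statement on the alleles they carried. The genotype field of all 4 libraries reads Wildtype, so groups follow the titles. The deletion therefore depended on recombination in each cell. TRF2 binding was taken from 2 CUT&Tag libraries and 1 IgG library of MuSCs labelled wild-type after notexin injury. The sources differ on these cells: the labels give tibialis anterior muscle 3 days after injury, and the methods also name gastrocnemius muscle, a shorter time and control mice with Pax7 Cre and TdTomato alleles. The CUT&Tag cells thus came from injured muscle, while the titles of the ATAC libraries give 0 hr. Each label was checked at Terf2, the gene that encodes TRF2. The highest peak at its starts had a fold of 54.3 and 48.4 in Control and 21.5 and 18.6 in TRF2KO.

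ATAC-seq reads where a transposase can enter chromatin. Most accessible sites are short, one regulatory element wide, whereas long accessible stretches are known at very active genes and at genes that define a cell type. MuSCs are the Pax7-expressing stem cells beneath the basal lamina of the muscle fibre. Quiescent cells express Pax7, Myf5, Notch effectors and adhesion proteins, and dissociation of muscle is known to induce immediate early genes. TRF2 is the shelterin protein that binds telomeric TTAGGG repeats, and it can also bind guanine-rich sequence that folds into G-quadruplexes (G4).

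Short stretches of DNA from these regions show the letters behind the counts given further on. All were read 5′ to 3′ from the reference genome GRCm38.p6, and coordinates are those of the authors' mm10 files. The first 3 are 200-base windows at the summit of the Control replicate 1 peak, with the E-box CAGCTG, which myogenic factors such as MyoD bind, in capitals. They lie in an intron of Pax7, 85539 bp downstream of its start, in an intron at Sirt2 and in an intron of Cdh15.
Pax7, chr4:139747368-139747567, plus strand: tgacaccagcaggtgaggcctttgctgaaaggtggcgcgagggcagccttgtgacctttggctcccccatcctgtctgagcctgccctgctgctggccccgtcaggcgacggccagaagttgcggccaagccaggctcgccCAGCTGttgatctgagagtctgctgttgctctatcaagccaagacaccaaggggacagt
Sirt2, chr7:28774196-28774395, plus strand: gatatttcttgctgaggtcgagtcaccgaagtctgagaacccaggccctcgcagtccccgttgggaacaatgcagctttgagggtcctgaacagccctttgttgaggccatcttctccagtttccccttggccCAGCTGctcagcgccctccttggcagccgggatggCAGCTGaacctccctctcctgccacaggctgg
Cdh15, chr8:122850712-122850911, plus strand: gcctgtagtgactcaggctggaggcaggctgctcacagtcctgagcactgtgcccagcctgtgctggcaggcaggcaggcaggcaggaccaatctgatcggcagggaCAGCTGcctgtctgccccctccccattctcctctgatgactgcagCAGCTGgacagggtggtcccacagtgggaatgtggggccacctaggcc
The next 5 lie where a TRF2 region fell inside a broad region at a gene of stem cell maintenance, muscle, Notch or activation. Capitals mark the match to a G4 motif, 4 blocks of at least 3 G with 1 to 7 bases of any kind, G included, between them, so an unbroken G run as at Jun can hold several blocks. The first match found is flanked by 30 bases, and at Mef2d a second match falls in the flank. Each lay upstream of the nearest annotated start of its gene, by 54 bp at Atf3, 96 bp at Mef2d, 105 bp at Cxcr4, 216 bp at Jun and 284 bp at Hey2.
Cxcr4, chr1:128592357-128592439, plus strand: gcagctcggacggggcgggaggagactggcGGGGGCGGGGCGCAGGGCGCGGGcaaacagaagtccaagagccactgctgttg
Mef2d, chr3:88142232-88142320, minus strand: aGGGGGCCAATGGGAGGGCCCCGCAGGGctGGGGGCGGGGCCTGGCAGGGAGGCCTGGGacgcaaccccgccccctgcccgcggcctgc
Hey2, chr10:30843044-30843126, plus strand: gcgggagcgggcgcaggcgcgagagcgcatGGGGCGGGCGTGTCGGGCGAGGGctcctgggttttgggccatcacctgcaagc
Atf3, chr1:191183351-191183436, plus strand: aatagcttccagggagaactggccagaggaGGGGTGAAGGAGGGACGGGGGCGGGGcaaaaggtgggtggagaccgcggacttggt
Jun, chr4:95052400-95052475, minus strand: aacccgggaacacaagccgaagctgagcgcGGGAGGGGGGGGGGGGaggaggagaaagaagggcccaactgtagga

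Control replicates 1 and 2 had 4973 and 5536 broad peaks, among 87394 and 98558 peaks, and TRF2KO replicates 1 and 2 had 4300 and 3676, among 83039 and 82556. The shared regions held 55.3 and 49.4% of the broad peaks of the Control libraries and 64.2 and 74.9% of those of the TRF2KO libraries. In the same order these were 2751, 2737, 2762 and 2754 peaks. The rule asks for every shared region in every library, so the percentages only follow the library totals. Widths are given only as a description. The merged regions ran from 2048 to 77863 bp with a median of 3115 bp (quartiles 2677 and 4026), and covered 10.2 Mb. Summed over the broad peaks of a region, Control libraries had a median width of 2791 and 2850 bp, and TRF2KO libraries of 2688 and 2586 bp. The mean over the 4 libraries reached 5 kb in 221 regions and 10 kb in 41. In 2530 of the 2669 regions every library had a single broad peak, and the median coefficient of variation of the width between libraries was 7.32%. TRF2KO replicate 2 was the narrowest library in 1240 regions and Control replicate 2 the widest in 1091. The background pileup recovered from the MACS values was highest in Control replicate 2, at 4.56 fragments against 3.35, 3.37 and 3.41 in Control replicate 1, TRF2KO replicate 1 and TRF2KO replicate 2. The part of this depth in the widths was not tested.

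Near the threshold the call was a matter of single bases. The smallest width just inside was 2000 bp at Arl5c, 2000 bp at Paxip1 and 2001 bp at Brsk2, each in TRF2KO replicate 1. Just outside stood Bbip1 with 1999 bp in TRF2KO replicate 2, Gm4285 with 1999 bp in TRF2KO replicate 1 and Cramp1l with 1998 bp in TRF2KO replicate 1.

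The broad regions were mostly promoters. A transcript start lay inside or within 3 kb of 2123 regions (79.5%, 95% interval 78.0 to 81.1%), against 38.8% (38.4 to 39.2%) of the other regions open in all libraries. A protein-coding start lay inside 1870, or 70.1%. Around that start the open stretch reached a median of 1307 bp upstream and 1806 bp downstream, and 68.1% of the 1870 reached further downstream, against 64.9% of the 12153 narrower regions with a coding start. In 227 regions 2 or more coding genes started, on both strands in 191 of them, and 87 regions held a whole coding gene. Intervals here and below are Clopper-Pearson intervals and cover counting error only.

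The remaining 546 regions lay over 3 kb from any annotated start, 292 in a gene and 254 between genes. Their share was 20.5%, against 61.2% of the other regions. Among the 41 regions with a mean width of 10 kb or more, none was distal.

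The 10 widest regions included some at chaperone genes, a noncoding RNA and an immediate early gene. At Sfi1, which encodes a centrosome protein, the broad peaks spanned 75594 and 75468 bp in Control and 75173 and 77232 bp in TRF2KO. At Mroh2a they spanned 56367, 58160, 57659 and 57009 bp in the same order, and at Gm10718 37620, 38050, 38337 and 38048 bp. These 3 were absent from both consensus lists of the authors, which were made after removal of blacklisted regions, and the regions at Sfi1 and Gm10718 also held 11 and 17 IgG peaks. All their widths were alike in the 4 libraries.

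At Hsph1, a chaperone of the HSP110 family, the widths were 31181 and 31878 bp in Control and 29273 and 28213 bp in TRF2KO. The open stretch covered the whole gene (chr5:149614287-149636376) and ran on beyond its end. At Neat1, the noncoding RNA of nuclear paraspeckles, widths were 29071, 29307, 28652 and 25249 bp. At Gm20481, a model that shares its region with the heat shock genes Hspa1a and Hspa1b, they were 26485, 24395, 21101 and 21789 bp. The region at 2610306O10Rik lay beside Bag3, which encodes a co-chaperone, and spanned 26488, 25600, 22141 and 15147 bp. Atf3, Sdc4 and Gm26887 followed, with mean widths of 20887, 17852 and 17530 bp. All 7 were in both consensus lists, and all but Sdc4 were wider in both Control libraries than in either TRF2KO library, by as little as 33 bp at Atf3.

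Genes of the MuSC were often broad. Within 3 kb of a start, 10.6% of all 20807 coding genes on these chromosomes had a broad region, while 14366 had a peak in all 4 libraries there. On the list of 30 genes for stem cell maintenance and surface, all 30 had such a peak and 14 (46.7%) a broad region at a start, and 16 had a broad region at a start or in the gene body. No test was made of a list, because the lists were chosen with earlier results known.

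**Figure D1:**
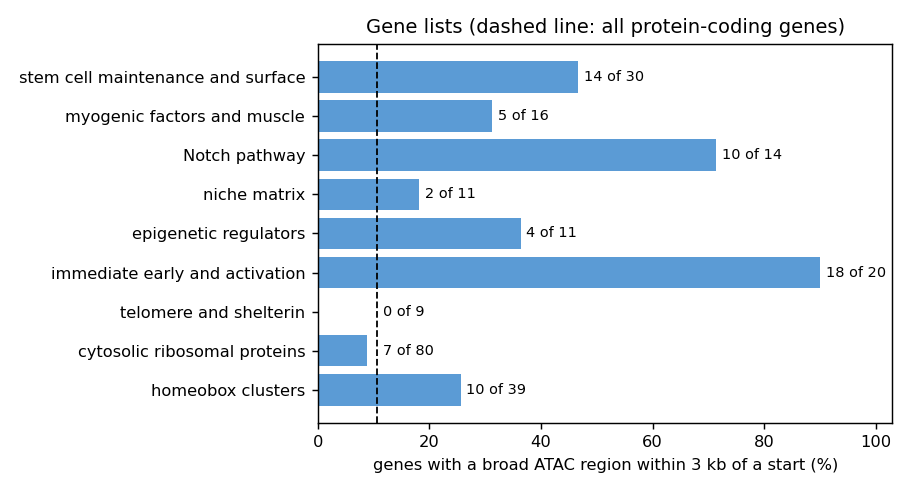
Share of the genes of each list (horizontal axis, %) with a broad ATAC region within 3 kb of an annotated start, with counts beside the bars; the dashed line is the 10.6% of all protein-coding genes. Immediate early genes stood highest with 18 of 20, and none of the 9 telomere and shelterin genes had a broad region.

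Pax7, the transcription factor that marks and maintains MuSCs, held 3 broad regions. The region at its start (chr4:139819147-139834908) measured 15007 and 13585 bp in Control and 12011 and 6492 bp in TRF2KO. A region in the gene body, 58928 bp from the nearest start, measured 7751, 9514, 7935 and 3491 bp in the same order. The third, 84744 bp from the nearest start, measured 5088, 4840, 4885 and 2329 bp. In all 3, TRF2KO replicate 2 was the narrowest and the other 3 libraries lay closer to each other than to it. Widths sum only peaks of 2000 bp or more, and in TRF2KO replicate 2 neighbouring peaks at Pax7 fell under that limit, among them one of 1821 bp with a fold of 66.05 in the third region.

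No TRF2 peak of either library touched the 3 Pax7 regions. The nearest TRF2 region, with folds of 5.79 and 4.98, lay about 28 kb downstream of the start in an intron. The ATAC peak there was 1938, 1989, 1519 and 2245 bp wide, so it was broad in TRF2KO replicate 2 alone and no member.

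Among surface and adhesion genes, Sdc4, which encodes the syndecan used to mark MuSCs, had the widest region. It measured 17842 and 18556 bp in Control and 18202 and 16806 bp in TRF2KO, and the groups overlapped. Cdh15, the gene of M-cadherin, measured 6186, 6125, 4892 and 5940 bp. Cxcr4, a chemokine receptor, measured 5966, 6426, 6243 and 3154 bp, again with TRF2KO replicate 2 lowest. Fgfr1, a growth factor receptor, held 4 broad regions in or beside the gene. Sdc3 and Fgfr4, a syndecan and an FGF receptor, had a broad region in the gene body only.

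Itga7, the gene of the α7-integrin used in the sort, stood apart between genotypes. Its region (chr10:128933292-128939538) measured 5653 and 6107 bp in Control and 2206 and 2029 bp in TRF2KO, without overlap. These widths sum only peaks of 2000 bp or more. In Control replicate 2 the whole stretch was a single peak, and in Control replicate 1 it was split into peaks of 3599 and 2054 bp. In both TRF2KO libraries it was split into 3, of which only the last passed 2000 bp. Those left out measured 1629 and 1722 bp in TRF2KO replicate 1 and 1100 and 1941 bp in TRF2KO replicate 2. The highest peak of any width in the region had folds of 73.4 and 68.0 in Control, against 60.4 and 56.1 in TRF2KO.

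The other members of this list with a broad region at a start were Foxo3, a quiescence factor, Ncam1 and Cdh2, adhesion genes, Cav1, a caveolin, Six4, a homeobox factor, Tenm4, a teneurin, and Gpx3, a glutathione peroxidase. Gpx3 was the widest of them, with 13054, 13626, 13135 and 10107 bp. Genes of the list with a peak but no broad region included Pax3, Cd34, Calcr, Vcam1, Itgb1 and Met.

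Of 16 myogenic and muscle genes, 5 (31.2%) had a broad region at the start. Myf5, a myogenic factor already present in quiescent cells, measured 5601 and 5255 bp in Control and 5053 and 4922 bp in TRF2KO. Myod1, the factor of committed myoblasts, measured 4015, 4945, 5006 and 2245 bp. Des, which encodes desmin, measured 13253, 13708, 12863 and 12351 bp. Mef2d, a MADS-box factor, and Sntb1, a syntrophin, were the others. Myog and Myf6, factors of differentiation, and Ckm, Acta1, Myh3 and Ttn, genes of the muscle fibre, were not broad, although all 16 had a peak in every library.

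Notch signalling maintains MuSC quiescence, and 10 of 14 genes of the pathway (71.4%) were broad at the start. These were the receptors Notch1 and Notch3, the ligands Dll1 and Jag1, the DNA-binding partner Rbpj and the effectors Hes1, Hes6, Hey1, Hey2 and Heyl. Heyl measured 8392 and 8992 bp in Control and 7892 and 7792 bp in TRF2KO, and Hes1 5116, 5228, 5153 and 5288 bp. A region in the Notch1 gene body, 13974 bp from the nearest start, measured 4755 and 4576 bp in Control and 2412 and 2006 bp in TRF2KO. The Heyl and Notch1 body regions were wider in both Control libraries, while the groups overlapped at Hes1.

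Immediate early and activation genes had the highest share, 18 of 20 (90%), and Fosl1 and Klf2 were the exceptions. Atf3, a stress-induced factor, measured 20886 and 21325 bp in Control and 20853 and 20485 bp in TRF2KO. Jun measured 9644, 9250, 9157 and 9062 bp, and Fos 9866, 11359, 9917 and 9976 bp; both encode parts of the AP-1 factor. The median mean width over the 19 regions of this list was 9278 bp, against 3595 bp over the 24 regions of the stem cell list and 4018 bp over the 12 of the Notch list. The other genes were Fosb, Fosl2, Junb, Jund, Egr1, Egr2, Egr3, Ier2, Ier3, Myc, Klf4, Klf6, Nr4a1, Socs3 and Zfp36, with Zfp36 in a region shared with Plekhg2.

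**Figure D2:**
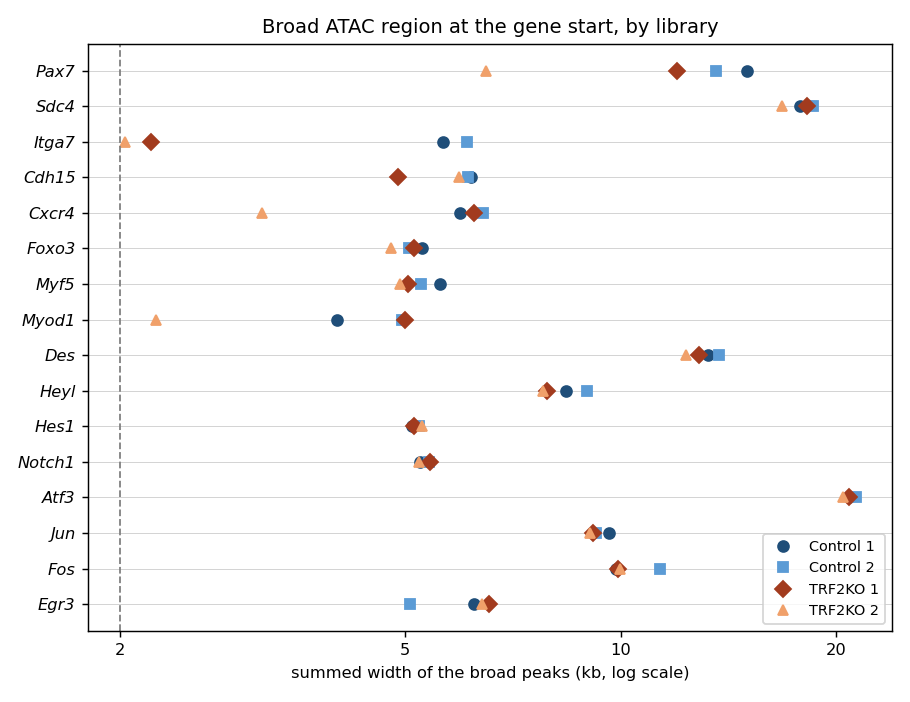
Summed width of the broad peaks at the start of 16 genes (rows) in each of the 4 ATAC libraries (kb, log scale), with the 2 kb threshold dashed. Atf3 and Sdc4 were the widest in all libraries, and TRF2KO replicate 2 fell below the others at Pax7, Cxcr4 and Myod1. Itga7 was narrower in both TRF2KO libraries, where its peaks under 2 kb are not summed.

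Of the niche matrix genes Col5a1, a collagen chain, and Lamc1, a laminin chain, were broad (2 of 11), and of the epigenetic regulators Ezh1, Sirt2, Prmt1 and Carm1 (4 of 11). Sirt2, a deacetylase, measured 2969 and 3047 bp in Control and 2611 and 2485 bp in TRF2KO. Homeobox cluster genes were broad at 10 of 39, all in the Hoxa and Hoxc clusters. Only 7 of 80 cytosolic ribosomal protein genes (8.75%) were, although 77 had a peak in every library. None of 9 telomere and shelterin genes was broad.

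Markers of other cells were checked in the same way. Of 9 MuSC markers all 9 had a peak in every library at the start and 5 were broad. Of 5 endothelial markers 3 had such a peak, of 6 haematopoietic markers 2, of 5 fibro-adipogenic markers 2, of 4 fibre markers 3 and of 3 neuronal markers 2, and none of these markers was broad. Broad regions stood at 1 of 5 pericyte and smooth muscle markers (Notch3) and 1 of 3 Schwann cell markers (Ngfr). They also stood at 1 of 2 tenocyte markers, Scx, in a region shared with Bop1. The part of such cells in the regions was not tested.

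TRF2 regions, with a CUT&Tag peak in both TRF2 libraries, overlapped 969 of the 2669 broad regions (36.3%, 34.5 to 38.2%) and 9.35% (9.11 to 9.59%) of the others. With a peak in either TRF2 library the shares were 62.6 and 20.1%. An IgG peak overlapped 23 broad regions, or 0.862%, and 0.241% of the others. Wide regions offer more room, and counted per length the difference was smaller, 61.0 bp of TRF2 region per kb against 43.3. Where a coding start lay inside, the direction turned, with 71.1 bp per kb in broad and 104 in the narrower regions, although 43.5% of these broad regions and 30.6% of the narrower ones held a TRF2 region. In a 500-bp window at the summit the shares were 31.9% (30.1 to 33.7%) and 9.13% (8.89 to 9.36%).

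Height of the ATAC peak moved with this overlap. Peaks were ranked by fold within each library, as a percentile, and the mean was taken over the libraries. In the top 5%, a TRF2 region lay at the summit window of 58.1% (55.1 to 61.1%) of 1084 broad regions and of 68.4% (66.6 to 70.3%) of 2471 regions with a mean width of 1000 to 2000 bp. In the next 5% the shares were 23.2% (20.03 to 26.7%) and 34.4% (32.6 to 36.3%), and from the 75th to the 90th percentile 8.78% (6.89 to 10.98%) and 12.6% (11.7 to 13.4%). At equal rank, then, broad regions held TRF2 at the summit less often than regions of 1000 to 2000 bp, with intervals that did not overlap in these bins. They did not stand apart from regions under 1000 bp, of which 58.0% (50.3 to 65.3%) held TRF2 in the top 5%. Nor did they stand apart from regions of 2000 bp or more that were not broad in all libraries. Of those, 58.1% (53.8 to 62.2%) held TRF2 in the top 5% and 25% (21.04 to 29.3%) in the next 5%. From the 75th to the 90th percentile it was 9.34% (7.52 to 11.4%).

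**Figure D3:**
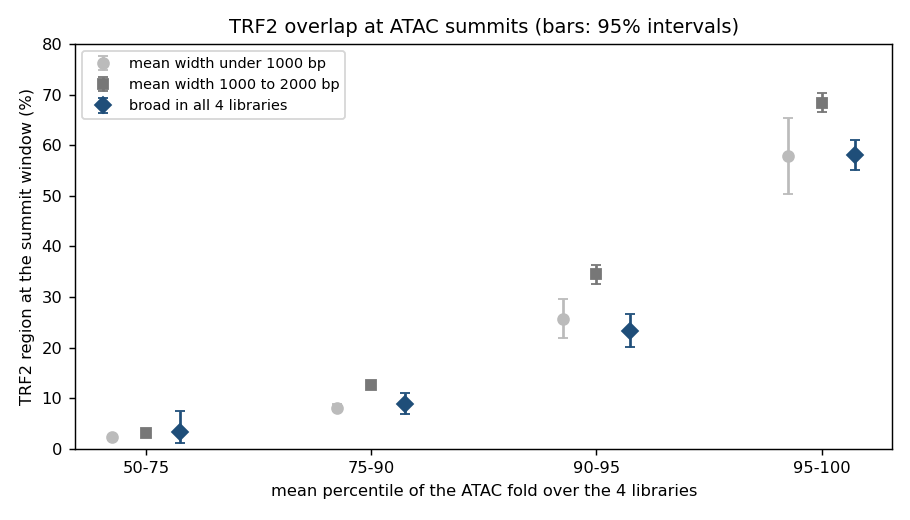
Share of ATAC regions with a TRF2 region in the 500-bp window at the summit (vertical axis, %, with 95% intervals) by the mean percentile of the ATAC fold, for broad regions and for narrower regions of 2 width classes. The share rose from 3.29% of broad regions at the 50th to 75th percentile to 58.1% in the top 5%, and broad regions lay below those of 1000 to 2000 bp from the 75th percentile on. Regions of 2000 bp or more that were not broad in all libraries had shares near those of broad regions from the 75th percentile on and are not drawn.

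The gene lists were read against the share over all broad regions. A TRF2 region lay in 12 of 24 broad regions of the stem cell list, 9 of 19 of the activation list, 4 of 12 of the Notch list, 2 of 5 of the myogenic list and 1 of 8 of the homeobox list, against 36.3% of all broad regions. At Sdc4, Cxcr4, Foxo3, Six4, Des, Mef2d, Hey1, Hey2, Hes6, Jun and Atf3 a TRF2 region was present. At Myf5, Notch1, Hes1 and Myc neither TRF2 library had a peak in the region at the start, and at Myod1 2 peaks were present without one shared by both libraries.

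The broad regions with the highest TRF2 folds and no IgG peak all held a coding start. At Add3, which encodes an adducin, the TRF2 folds were 15.4 and 14.1, and at Nudt6 10.1 and 15.4. At Gpbp1 they were 12.1 and 13.2, at Wee1, a cell cycle kinase, 13.5 and 11.7, and at Xpo1, the exportin, 13.5 and 11.6. The ATAC folds of all 5 lay between 122 and 207 in the 4 libraries. None of these genes was on a list, and Xpo1 was in neither consensus list.

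A G4 motif was counted where 4 G runs, each 3 or longer, were separated by 1 to 7 bases, on both strands. It stood in the summit window of 40.8% (38.9 to 42.7%) of broad regions and 18.0% (17.7 to 18.3%) of the others. With a coding start inside, the shares were 49.5 and 36.9%, and in distal regions 17.8 and 12.2%. Median GC content of the window was 60.2 and 51.0%, so base composition moved with the motif. The GC box GGGCGG was found in 63.5 and 26.5% of windows. All motifs were counted on both strands in windows of the same length.

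Distal broad regions had other letters. The E-box CAGCTG, printed above at Pax7, stood in 56.8% (52.5 to 61.0%) of their windows and in 46.8% (46.2 to 47.3%) of narrower distal regions, but in 32.2 and 30.5% at coding starts. The AP-1 site TGANTCA was found in 26.9% (23.2 to 30.9%) and 25.2% (24.7 to 25.6%) of distal windows, where the intervals overlapped. CCAAT differed little, with 48.3% of all broad and 46.9% of the other windows. A pair of telomeric TTAGGG repeats in a row, a motif added after values had been seen, was in no summit window of a broad region, which allows a share of up to 0.138%, and in 31 of the others. Over their whole length 3 broad regions held it, none with a TRF2 region, while 29 of the 50 other regions that held it had one.

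Between genotypes, the height of broad regions had no direction that held on every scale. Control libraries had a median fold of 72.7 and 62.4, and TRF2KO libraries of 71.8 and 66.3, so the libraries overlapped. As a percentile of all peaks of the library the Control median was 93.6 and 94.3 (93.9 ± 0.47, SD, n = 2) and the TRF2KO median 93.0 and 92.9 (92.9 ± 0.14, SD, n = 2), a difference of -0.97 (exact two-sided permutation test, p = 0.33, the smallest that 2 against 2 libraries allow). Over all regions open in every library the same difference was -4.23, from 66.9 in Control to 62.7 in TRF2KO. Relative to the median peak of the regions open in all libraries, on the log2 scale, the difference was 0.21 with the opposite sign (exact permutation test, p = 0.33). Nothing says that the 2 libraries of a group came from separate animals beyond the word replicate, so the spread may be technical.

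Counts of single regions turned in the same way. Both Control percentiles lay above both TRF2KO percentiles in 1188 broad regions (44.5%), beside 44% of all 60353 regions open in every library, and the reverse held in 208 (7.79%), beside 9%. On the log2 scale relative to the median peak, Control was higher in 191 (7.16%) beside 18.6%, and TRF2KO in 1991 (74.6%) beside 43.8%. Broad regions at coding starts were higher in TRF2KO on that scale in 81.4%, and narrower regions at coding starts in 72.6%. Distal broad regions were higher in Control by percentile in 66.8%, beside 48.4% of narrower distal regions. On the log2 scale they were higher in TRF2KO in 56.6%, beside 33.8%. Width, which the rule used, was larger in both Control libraries in 994 regions, beside 32.9% of all regions, and larger in both TRF2KO libraries in 170, beside 9.38%.

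The gene lists followed the scale too. Of the 24 regions of the stem cell list, 22 were higher in Control by percentile and none in TRF2KO, but relative to the median peak 3 were higher in Control and 14 in TRF2KO. Over all regions open in every library these shares were 44 and 9% by percentile, and 18.6 and 43.8% relative to the median peak. Of the 19 regions of the activation list 7 and 3 were so by percentile, and 0 and 18 relative to the median peak. Regions on the stem cell, Notch and epigenetic lists that were higher in Control on both scales and in the deposited fold were those at Itga7, Sirt2 and Dll1 and in the bodies of Sdc3, Fgfr1 and Notch1. At Sirt2 the folds were 52.0 and 42.8 in Control and 28.1 and 24.7 in TRF2KO. At Dll1, a Notch ligand, they were 35.7 and 32.8 against 24.0 and 27.0, without overlap. No region of these lists was higher in TRF2KO by percentile except Hey2 and Heyl of the Notch list and Jund, Egr3 and Atf3 of the activation list.

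The regions with the widest percentile gaps and Control higher held no start, and some lay within 3 kb of one. Inside Lmf1, a lipase maturation factor, 44045 bp from the nearest start (chr17:25623365-25627901), the folds were 54.8 and 48.8 in Control and 16.7 and 13.4 in TRF2KO. The single Control peaks of 4489 and 4511 bp stood against TRF2KO peaks of 2721 and 2331 bp. Near Traf7, a ubiquitin ligase gene with its start 1543 bp away, the folds were 37.5 and 33.3 against 15.3 and 16.1. Near Il17d, a cytokine gene with its start 9207 bp away, they were 35.9 and 29.9 against 17.6 and 16.3. The region near Gm22106 had 25.3 and 22.3 against 12.4 and 11.3 for its broad peaks, but a narrower peak in it reached 21.7 and 24.1 in TRF2KO, where the groups overlapped. None of these 4 regions held a TRF2 peak of either library.

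On the TRF2KO side Gdf15, which encodes a stress-induced cytokine, had folds of 32.2 and 29.0 in Control, against 65.4 and 56.7 in TRF2KO. Its region (chr8:70626789-70632510) was 2802 and 3138 bp wide in Control and 5644 and 4749 bp in TRF2KO, and a single TRF2 library had a peak there. A neighbouring region near Pgpep1, a peptidase gene, had folds of 27.4 and 21.4 against 44.8 and 39.0. At Ankrd33b, an ankyrin repeat gene, they were 11.5 and 9.90 against 16.9 and 15.7. Near Mast4, a kinase gene with its nearest start 4386 bp away, they were 27.4 and 20.3 against 40.5 and 35.4. At Cpeb2, a translation regulator, they were 32.9 and 27.5 against 54.9 and 49.7. The broad regions near Mast4 and at Cpeb2 held a TRF2 region. By the highest broad peak, all 9 regions kept their direction in the deposited fold and relative to the median peak. All were in both consensus lists.

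**Figure D4:**
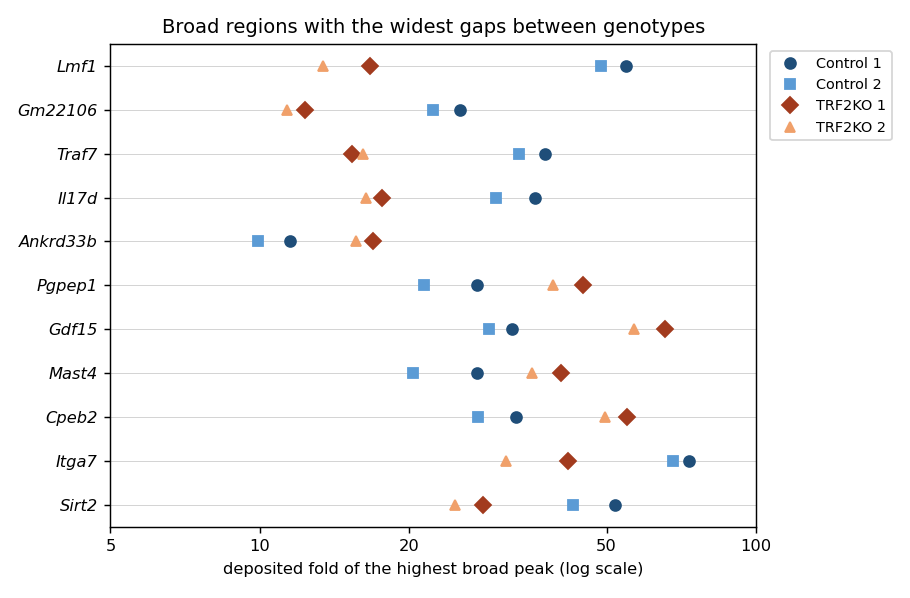
Deposited fold of the highest broad peak (log scale) in each of the 4 ATAC libraries for 9 broad regions with the widest percentile gaps in either direction and for Itga7 and Sirt2. For these broad peaks the points of Control and TRF2KO do not overlap in any row. Lmf1 stands at 54.8 and 48.8 against 16.7 and 13.4, and Gdf15 at 32.2 and 29.0 against 65.4 and 56.7. With narrower peaks included, the groups overlap at Gm22106, and the highest TRF2KO peaks at Itga7 have folds of 60.4 and 56.1.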

How the data were processed

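ATAC-seq (4 libraries) and CUT&Tag (3 libraries) of sorted MuSCs were used as deposited peak lists. According to the labels and methods, the authors trimmed reads with Cutadapt, aligned them to mm10 with Bowtie2, removed duplicates with Picard, kept unique proper pairs with SAMtools and called peaks with MACS, SEACR and GoPeaks. The submitters' processing notes name MACS3 3.0.2 for ATAC-seq and 3.0.0 for CUT&Tag. MACS options and a transposase shift are not given in the sources used here, and the largest gap bridged within a peak bears on its width. Each MACS peak carries the authors' fold enrichment ratio over background and their -log10 p and -log10 q, and the fold has no scale shared between libraries. The authors' consensus lists from DiffBind 3.10.1 are named by genotype and were used for overlap only.

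Here, MACS peaks on chromosomes 1 to 19 with an end minus start of at least 2000 bp were merged where they touched or overlapped, and regions with such a peak in all 4 libraries were kept. The fold of a region was that of its highest broad peak. Starts and genes came from GENCODE M21, and other overlaps needed 1 bp. The genotype comparison used an exact permutation of the labels of 4 libraries (two-sided, 6 assignments). Named regions were the 10 widest, genes of the lists at a start or in the body, the 5 widest percentile gaps each way, the 5 highest TRF2 folds without IgG and 3 regions on each side of the threshold. Regions and lists were chosen with earlier results of these data known. The background pileup was solved from fold and p by the Poisson tail, for every 25th peak with -log10 p between 5 and 200. No read totals were available to these steps, and the precision of a width or fold is limited by the number of libraries. Interval code was tested on simulated regions. Python 3 with numpy, pandas and scipy was used. Alternatives were other widths, q limits, overlap with regions of the other callers, scales and left-out libraries. Results at some loci are not reported here.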

Additional observations from a re-analysis of the deposited data

How the results depend on the processing

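The number of broad regions was 6374 at a minimum width of 1500 bp and 634 at 3000 bp. It was 2669 with a stricter q and 2664 with a base shared by all libraries. Where a GoPeaks and a SEACR region of any width had to overlap each broad MACS peak, it was 2667. Widths were not called again with these callers, so that count does not test the width. Leaving out a library gave 2769 to 3223. The fold percentile difference stayed negative by the mean, for members in both consensus lists and for the highest peak of any width. It shrank to -0.15 as a percentile among peaks of the regions open in all libraries, and ran from -1.31 to -0.64 without a library. Ranked by -log10 q it was again -0.97, with the same counts of regions apart, so this ranking was no separate check. The replicate block gave -0.97 (exact paired permutation test, p = 0.5, the smallest that 2 pairs allow). The difference reversed to 0.21 on the log2 scale relative to the median peak, added after seeing the data, and the cause was not tested. Regions apart numbered 673 with Control higher and 831 with TRF2KO higher within the regions open in all libraries, 191 and 1991 relative to the median peak, and 375 and 843 by the deposited fold, all added later. The TRF2 share was 62.6% with either library, 20.8% with a -log10 q of 5 in both, 31.9% at the summit, and 48.5 to 53.1% from a single TRF2 library. The share at a start was 74.4% inside the region and 73.7% for coding genes, and the G4 share 58.1% with loops to 12 bases and 83.5% over the whole region. With 2 libraries a group no permutation p can pass 0.05, and read totals were not used here.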

Other observations

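Chaperone genes formed a group among the broad regions that no list held. The list of 19 heat shock, chaperone and ubiquitin genes was drawn up after the widest regions had been seen, so its count supports nothing. Of these, 14 had a broad region within 3 kb of a start, beside 10.6% of all coding genes. The 15 regions had a median mean width of 10102 bp. A TRF2 region lay in 9 of the 15, beside 36.3% of all broad regions and 43.5% of those with a coding start inside. Dnajb1, an HSP40 co-chaperone, measured 15337 and 15925 bp in Control and 13646 and 13263 bp in TRF2KO, and Hspa8, the constitutive HSP70, 12759, 12867, 13149 and 9426 bp. The heat shock element, counted as GAA, TTC and GAA with 2 bases between neighbours on both strands, stood in the summit window of 4 of the 15 and in 0.787% of all broad regions, against 1.10% of the other regions open in all libraries.

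Of the 2669 broad regions, 80 were in neither consensus list. They included regions with the start of the gene models Gm10718 and Gm26917 and of Cdkn1a, Gadd45b, Atf4, Eef2 and Actg1, named here after their values were seen and not as a group. Coding genes with many broad regions in their body, also named afterwards, were Zbtb20 with 8, Gse1 with 6 and Fgfr2 with 5.

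Among the widest distal regions, likewise named afterwards, the one whose nearest start is that of Flrt1, 39584 bp away, lay in a gene and measured 10607 and 13064 bp in Control and 6066 and 6478 bp in TRF2KO. The one near Bahcc1 measured 6770, 7151, 7403 and 6216 bp, with folds of 79.2 and 62.4 in Control and 124.6 and 125.7 in TRF2KO. The one near Wnt7b, a Wnt ligand gene, measured 6176, 6081, 6202 and 5137 bp.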
